A study of Rattus with 12 samples.

Results

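The loci described here are the named genes of the distal end of rat chromosome 1, from 200 Mb on, that were transcribed in the medullary thick ascending limb. A row of the authors' gene table was taken if it lay there, carried 1 gene name and averaged at least 1 FPKM (fragments per kilobase of transcript, scaled to the mapped fragments of a library) over the 2 strains compared. This gave 495 loci of 42915 rows in the table, from 1644 rows of the region. The mean level chose the loci, so their being transcribed is no finding, and the ratio between strains was not used to choose them. Of the 495 loci, the authors tested 471, leaving 24 without a test.

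RNA was made from thick ascending limbs that had been picked by hand under a microscope, after digestion of the inner stripe, from the kidneys of male rats aged 7 weeks. All animals had eaten a diet with 0.4% NaCl since weaning and received no other treatment. Of the animals, 6 were Dahl salt-sensitive rats, SS/JrHsdMcwi (here SS), and 6 came from SS-Chr 1BN/Mcwi (SS.BN1), a consomic strain that carries chromosome 1 of the Brown Norway rat in the SS background. Every animal was sequenced as a library of its own, but the tables hold 1 FPKM value per strain. Each value below is therefore the authors' strain value, has no error between animals, and is judged only by the authors' adjusted p, called q. Since the whole chromosome is exchanged in SS.BN1, effects of a locus's own alleles and of other loci on the chromosome cannot be told apart.

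The thick ascending limb takes up salt through the Na-K-2Cl cotransporter and returns it to the blood, and it keeps the medulla concentrated. A consomic strain replaces a whole chromosome of one inbred strain by that of another, so that a trait that changes can be placed on that chromosome. A gene on the exchanged chromosome can differ through its own alleles or through regulators elsewhere on it. By design, a gene on another chromosome has the same alleles in both strains, so a genetic effect on it would come from the exchanged chromosome. Differences that are not genetic are not covered by this. The distal end of rat chromosome 1 holds genes for signalling phosphatases, inflammatory ligands, organic anion carriers, lipid enzymes and mitochondrial proteins.

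Libraries held 42.3 to 59.8 M reads, of which 84.4 to 86.4% were mapped. The percent mapped averaged 85.9 ± 0.339 (SD, n = 6) in SS beside 85.3 ± 0.522 (SD, n = 6) in SS.BN1 (two-sided exact permutation p = 0.0584). Of 7 thick ascending limb markers, 6 were matched, from Cldn16 (90.3 FPKM in SS beside 81.2 in SS.BN1) to Umod (10174 beside 8492), and the authors' deposited table called none different. In whole-tubule RNA, fewer cells of a type and less RNA per cell cannot be told apart.

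Most of the distal loci stood at nearly the same level in both strains, and the loci that differed were mostly higher in SS. By the authors' deposited table, 20 of 471 tested loci had a q under 0.05 (called, below), 4.25%, beside 3.42% of all 13253 tested rows. Of these, 19 were called toward SS, where 3.32% of all tested rows were, and 1 toward SS.BN1, where 0.0981% were. These shares lie near those of the whole table, and the share toward SS.BN1 rests on 1 locus. The median log2 ratio of SS over SS.BN1 was 0.02 for the loci and 0.00 for all tested rows, and 264 of the 471 loci (56.1%) had the higher value in SS, beside 50.3% of all tested rows. At least 1.5-fold differences were seen at 47 loci toward SS (9.98%; 8.38% of all tested rows) and at 5 toward SS.BN1 (1.06%; 2.23% of all). The remaining 419 loci, 89.0%, were within 1.5-fold. Among named loci of other chromosomes chosen by the same level, 7.49% were at least 1.5-fold higher in SS and 1.04% in SS.BN1.

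The called loci had a median fold of 2.40, a smallest of 1.63 and a largest of 13.2, and 4 of them differed at least 4-fold. With the authors' q under 0.01, 13 loci were called, where 2.22% of all tested rows were. An unadjusted p under 0.05 was reached by 52 loci, 11.0%, beside 7.55% of all tested rows. The smallest p in the authors' deposited table, 5e-05, was shared by 10 of the called loci, so it does not rank them.

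**Figure D1:**
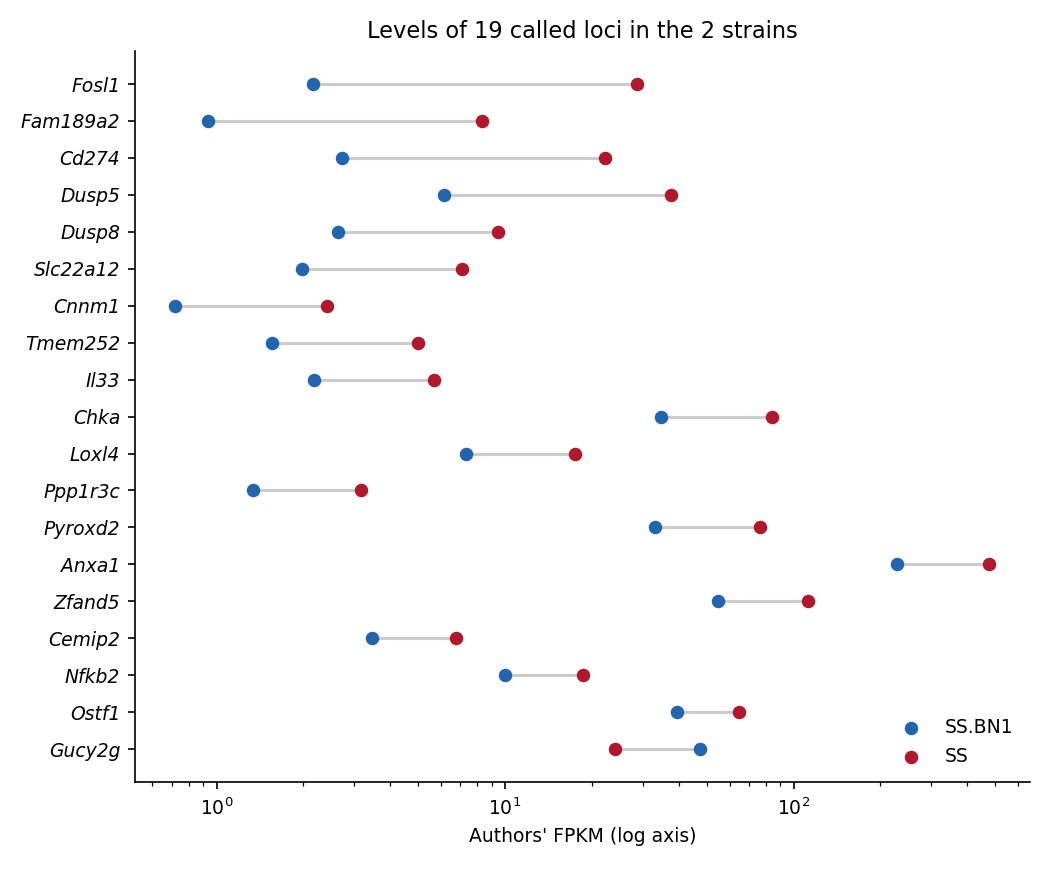
Authors' FPKM of 19 of the 20 called loci in SS (red) and SS.BN1 (blue) on a log axis, with 1 value per strain joined by a line and no error bars. Fosl1 has the widest gap, 28.6 against 2.16 FPKM, and Gucy2g at the bottom is the one locus with the higher value in SS.BN1.

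Coordinates below are as deposited, on a rat genome build that the sources used here do not settle. Among signalling genes, an AP-1 subunit, 2 phosphatases of mitogen-activated protein kinases and an NF-kB subunit were called higher in SS. Fosl1, which pairs with Jun proteins to form the AP-1 transcription factor (chromosome 1, 220826560 to 220838079), stood at 28.6 FPKM in SS beside 2.16 in SS.BN1. Its log2 ratio of 3.73 was the highest of all loci, and the authors' deposited table gave q = 0.00266. The Fosl1 row shares its interval with AC109096.1 (14.8 against 16.8 FPKM), so the split of reads between them is uncertain. Dusp5, a nuclear phosphatase that inactivates the kinase ERK (274245184 to 274258595), had 37.7 FPKM in SS beside 6.13 in SS.BN1. The log2 ratio of Dusp5 was 2.62, and the authors' deposited table gave q = 0.00266. Dusp8, a phosphatase that acts on the stress kinases JNK and p38 (215030429 to 215033460), had 9.45 against 2.63 FPKM, a log2 ratio of 1.84, for which the authors' deposited table gave q = 0.00266. Nfkb2, the precursor of the p52 subunit of NF-kB (266048620 to 266059256), had 18.7 against 9.98 FPKM, a log2 ratio of 0.90, for which the authors' deposited table gave q = 0.0419.

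Of 16 tested loci on the list of immediate early, NF-kB and stress regulators, 3 were called higher in SS (Fosl1, Dusp5 and Nfkb2). Of all tested rows, 3.32% were called toward SS. None of the 16 was called higher in SS.BN1 and 12 were within 1.5-fold. The count is small, and the list was chosen with earlier results of these data known. The list's median log2 ratio was 0.09, beside 0.00 for all tested rows. Rela, the p65 subunit of NF-kB, had 33.1 FPKM in SS beside 20.9 in SS.BN1 but missed the threshold, as its q was 0.0657 by the authors' deposited table. Klf9, a Kruppel-like factor induced by glucocorticoids, had 49.2 against 32.8 FPKM and also missed it, and the authors' deposited table gave q = 0.0948. The NF-kB-activating kinase Chuk had 15.8 FPKM in SS beside 16.5 in SS.BN1. The co-chaperone Stip1 (59.9 against 56.7 FPKM), the Myc antagonist Mxi1 (78.5 against 88.9) and the translation inhibitor Pdcd4 (55.4 against 60.3) were within 1.5-fold.

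Among immune genes, an inhibitory ligand of T cells and an alarm cytokine were called higher in SS. Cd274, which encodes the ligand PD-L1 (247519939 to 247539591), stood at 22.1 FPKM in SS beside 2.73 in SS.BN1. The log2 ratio of Cd274 was 3.02, and the authors' deposited table gave q = 0.00266. Il33, a cytokine that damaged epithelium and endothelium release (248132090 to 248147029), had 5.68 against 2.18 FPKM, a log2 ratio of 1.38, for which the authors' deposited table gave q = 0.0140. Jak2, the cytokine receptor kinase, had 11.6 against 9.90 FPKM and was not called.

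Of 13 tested immune loci, 2 were called toward SS (3.32% of all tested rows were) and none toward SS.BN1, and the median log2 ratio was 0.36, beside 0.00 for all tested rows. Both counts are small. Ifit3, an interferon-induced antiviral gene, had 20.5 FPKM in SS beside 5.02 in SS.BN1, yet the authors' deposited table gave q = 0.619. Ifit2, of the same family, had 11.1 against 5.99 FPKM. Both Ifit rows share 1 interval and the family has similar copies, so the split of reads between them is uncertain. Ch25h, which makes an antiviral oxysterol, had 19.7 against 13.7 FPKM, and the B cell adaptor Blnk had 30.9 against 24.1, neither called. Toward SS.BN1 stood the myeloid gene Ms4a6a (1.21 FPKM in SS beside 1.98 in SS.BN1) and Unc93b1, which carries Toll-like receptors (5.71 against 8.06), neither called. Macrophage and leukocyte markers had 457 FPKM in SS beside 466 in SS.BN1 summed over 5 genes, 2 of 5 were higher in SS and none was called, with Ptprc at 2.52 and 3.78. Their part in the immune loci was not tested.

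Of the organic anion carriers of the proximal tubule, 3 were among the loci, and 2 further listed carriers of the region lay under the mean level of 1. Slc22a12, the urate transporter URAT1 (221910767 to 221919301), stood at 7.11 FPKM in SS beside 1.98 in SS.BN1. It was called higher in SS, with a log2 ratio of 1.84 and q = 0.00266 in the authors' deposited table. Slc22a25, a relative of unclear substrate, had 1.86 against 0.646 FPKM, and the authors' deposited table gave q = 0.0657. Slc22a6, the organic anion transporter OAT1, had 2.08 against 0.910 FPKM, and the authors' deposited table gave q = 0.307. These genes have similar copies side by side on the chromosome, so reads can be split among them. The values of Slc22a25 and Slc22a6 in SS.BN1 are under 1 FPKM, so both passed the level of 1 only through SS, and the direction over the 3 carriers is no result about the group. A pseudocount of 1 took their log2 ratios to 0.79 and 0.69.

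Markers of the proximal tubule were higher in SS as well: 7 of the 10 listed were tested, all 7 were higher in SS and 6 were called. Of all tested rows, 3.32% were called toward SS. Among the 7, Cubn (0.872 FPKM) and Slc22a6 (0.910) were under 1 FPKM in SS.BN1. The summed level of the listed markers was 414 FPKM in SS beside 162 in SS.BN1, of which Kap held 290.3 and 120.5. Slc5a12, Slc5a2 and Slc22a8 were under 0.21 FPKM in both strains. Slc22a12 and Slc22a6 belong to that list as well. Glyat, a glycine conjugating enzyme of liver and proximal tubule (229060207 to 229082425), had 11.7 FPKM in SS beside 4.72 in SS.BN1, and the authors' deposited table gave q = 0.0686. The part of proximal tubule RNA in these loci was not tested.

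Among other transport and tubule genes, 2 of 16 tested loci were called toward SS (3.32% of all tested rows were) and 1 toward SS.BN1 (0.0981% were), with a median log2 ratio of 0.24 beside 0.00 for all tested rows. Cnnm1, of a family of magnesium-handling membrane proteins (263186235 to 263242468), had 2.41 FPKM in SS beside 0.721 in SS.BN1, and the authors' deposited table gave q = 0.00705. Its log2 ratio was 1.74, and 0.99 with a pseudocount of 1. Cnnm1, like Slc22a6, passed the level of 1 only through SS, so the count and median are no result about the group. Cnnm2, the family member known for magnesium transport in the distal nephron, had 10.4 against 11.1 FPKM.

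Transporters of the highest levels in this group were not called. Slc16a12, a creatine transporter, had 182 FPKM in SS beside 186 in SS.BN1. Slc3a2, the heavy chain shared by several amino acid exchangers, had 129 against 109 FPKM. Slc1a1, a glutamate transporter, had 65.9 against 43.8 FPKM, for which the authors' deposited table gave q = 0.0858. Add3, a subunit of the cytoskeletal protein adducin, had 39.9 against 34.0 FPKM.

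Gucy2g, a receptor guanylate cyclase that makes cyclic GMP, was the one locus called higher in SS.BN1 (276186888 to 276228574). It had 24.1 FPKM in SS beside 47.3 in SS.BN1, a log2 ratio of -0.97, for which the authors' deposited table gave q = 0.00266. Practically none of that level lay on the annotated Gucy2g transcript in either strain. The highest of 4 assembled transcripts had 15.3 FPKM in SS beside 31.5 in SS.BN1, and the authors' deposited table called none of the 3 tested (the highest had q = 0.160). Markers of other cells also stood toward SS.BN1. All 4 principal cell markers of the collecting duct were lower in SS (summed level 137 against 189 FPKM), and the authors' deposited table called Aqp2 (48.1 against 78.3 FPKM, q = 0.0318). The 3 tested intercalated cell markers were lower in SS, none called, with 78.6 against 98.3 FPKM summed over 4 genes. Of 4 endothelial markers, 3 were lower in SS (summed level 44.0 against 61.8 FPKM), and the authors' deposited table called Tek (6.78 against 11.6 FPKM, q = 0.0221). The part of these cells in the Gucy2g value was not tested.

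Human genome studies have tied blood pressure to places on the long arm of chromosome 10, and rat orthologues of genes there lie in this region. In the rat the listed genes do not form 1 short stretch. Trim8, Arl3, Borcs7 and Nt5c2 lie between 265 and 270 Mb, and Adrb1 lies between 275 and 280 Mb. Of 22 listed genes, 17 were among the loci. Of 16 tested orthologues, none was called in either direction, where 3.42% of all tested rows were. Of the 16, 14 were within 1.5-fold, and the median log2 ratio was 0.01. Arl3, a small GTPase of cilia, had 64.8 FPKM in SS beside 67.6 in SS.BN1, and Nt5c2, a cytosolic nucleotidase, had 61.0 against 62.2. The ubiquitin ligase Trim8 had 32.7 against 32.6 FPKM. The exceptions past 1.5-fold were Borcs7, a subunit of a complex that moves lysosomes (18.4 against 11.8 FPKM), and Adrb1, the beta-1 adrenergic receptor (6.60 against 3.59). Both missed the threshold, and the authors' deposited table gave q = 0.158 and 0.636.

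On the list of lipid enzymes, 1 of 14 tested loci was called, toward SS, where 3.32% of all tested rows were. Chka, the choline kinase that begins phosphatidylcholine synthesis (219077771 to 219126220), had 84.3 FPKM in SS beside 34.8 in SS.BN1, a log2 ratio of 1.28, for which the authors' deposited table gave q = 0.00502. The other 13 loci of the list were within 1.5-fold, and its median log2 ratio was 0.14. Cpt1a, which carries fatty acids into mitochondria, had 108 against 114 FPKM, and the acyl-CoA synthetase Acsl5 had 55.8 against 50.7. The seipin gene Bscl2 had 41.9 against 39.6 FPKM and the desaturase Scd2 had 41.3 against 37.4. Of 14 listed cytochrome P450 genes, 1 was among the loci, the arachidonic acid epoxygenase Cyp2c23 (2.78 against 2.10 FPKM, not called), and 8 lay in the region under the mean level of 1.

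Of the 10 loci with the highest levels, Anxa1 was the one called, and the others were within 1.5-fold. Fth1, the ferritin heavy chain, stood at 2815 FPKM in SS beside 2319 in SS.BN1, and Cox8a, a subunit of cytochrome oxidase, at 1950 against 1864. Atp5md, a small ATP synthase subunit, had 1365 against 1441 FPKM, and the peroxiredoxin Prdx5 had 523 against 480. None of 9 tested redox loci was called, where 3.42% of all tested rows were. All 9 were within 1.5-fold, with a median log2 ratio of 0.09. Aldh1a1, a retinal dehydrogenase, had 332 against 330 FPKM and the glutathione transferase Gstp1 had 335 against 289. None of 19 tested respiratory chain and mitochondrial loci was called, again beside 3.42% of all tested rows. All 19 were within 1.5-fold, and the median log2 ratio was 0.01. The complex I subunits Ndufb8 (313 against 328 FPKM) and Ndufs8 (240 against 228) are examples. LOC687780 had 384 against 381 FPKM. Ctsd, the lysosomal protease cathepsin D, had 306 against 217 FPKM, and the authors' deposited table gave q = 0.415.

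Anxa1, a phospholipid-binding protein that restrains inflammation (237893966 to 237910012), was the called locus of highest level. It stood at 476 FPKM in SS beside 228 in SS.BN1, a log2 ratio of 1.06, for which the authors' deposited table gave q = 0.00705. Of 25 tested loci for cytoskeleton, adhesion and growth, 1 (Anxa1) was called toward SS, where 3.32% of all tested rows were. None of the 25 was called higher in SS.BN1, 21 were within 1.5-fold and the median log2 ratio was 0.06. The actin-severing cofilin Cfl1 had 231 against 188 FPKM, the protease Capn1 99.6 against 107, cyclin D1 (Ccnd1) 95.4 against 92.9 and coronin Coro1b 73.8 against 67.8. Other values past 1.5-fold included those of the giant scaffold Ahnak (46.7 against 27.0 FPKM) and the smooth muscle actin Acta2 (3.95 against 2.57), neither called. Of 5 listed markers of fibroblasts and smooth muscle, 3 were tested, none was called and 1, Acta2, was higher in SS. The others tested, Col1a1 (1.69 against 2.92 FPKM) and Pdgfrb (1.49 against 1.76), were lower in SS.

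The other called loci belonged to no gene list and were of varied roles. Loxl4, a lysyl oxidase that crosslinks matrix (261753364 to 261853495), had 17.4 FPKM in SS beside 7.33 in SS.BN1, a log2 ratio of 1.25, for which the authors' deposited table gave q = 0.00266. Cemip2, a membrane protein that takes part in hyaluronan breakdown (239397357 to 239475126), had 6.75 against 3.46 FPKM, and the authors' deposited table gave q = 0.0221. Fam189a2, now named Entrep1, a membrane protein that binds ubiquitin ligases (241819850 to 241875864), had 8.30 against 0.933 FPKM. Its log2 ratio was 3.15, and 2.27 with a pseudocount of 1, and the authors' deposited table gave q = 0.00266. Tmem252, a small membrane protein (242572533 to 242577817), had 4.99 against 1.56 FPKM, and the authors' deposited table gave q = 0.0124.

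Zfand5, which binds ubiquitin and activates the proteasome (238842488 to 238856149), had 112 FPKM in SS beside 54.8 in SS.BN1, and the authors' deposited table gave q = 0.00266. Pyroxd2, a mitochondrial oxidoreductase (261961379 to 261986759), had 76.5 against 33.1 FPKM, and the authors' deposited table gave q = 0.00266. Ostf1, an SH3 domain protein first described in osteoclasts (234749568 to 234798662), had 64.5 against 39.3 FPKM, and the authors' deposited table gave q = 0.0454. Ppp1r3c, which brings protein phosphatase 1 to glycogen (255371810 to 255376833), had 3.16 against 1.34 FPKM, a log2 ratio of 1.24, for which the authors' deposited table gave q = 0.0290.

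Several large ratios toward SS missed the threshold. Ankrd22, an ankyrin repeat protein, had 5.22 FPKM in SS beside 0.515 in SS.BN1, the second highest log2 ratio of all loci (3.34, and 2.04 with a pseudocount of 1), and the authors' deposited table gave q = 0.0804. Frat2, an inhibitor of the kinase GSK3 in Wnt signalling, had 7.89 against 2.23 FPKM, and the authors' deposited table gave q = 0.310. The DNA repair gene Mgmt had 3.12 against 1.30 FPKM and the cytoskeletal adaptor Pdlim1 4.40 against 1.92, and the authors' deposited table gave q = 0.388 and 0.194.

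Toward SS.BN1, AC111315.1 was listed at 0 in SS against 50.7 FPKM in SS.BN1 and was not tested. Its interval is very short, so its FPKM is uncertain. Rbp4, the plasma carrier of retinol, had 0.538 FPKM in SS beside 1.79 in SS.BN1, a log2 ratio of -1.73 that became -0.86 with a pseudocount of 1, and the authors' deposited table gave q = 0.680. Cdkn1c, the cell cycle inhibitor p57, had 4.51 against 7.28 FPKM, and the transcription factor Dmrt2 had 4.86 against 7.76. Both were uncalled, and the authors' deposited table gave q = 0.574 and 0.522. Rab3il1 (1.11 against 1.63 FPKM), which shares its interval with other loci, was tested and not called. Ptprcap (0.736 against 1.48 FPKM), a lymphocyte gene, and the sorting nexin Snx32 (0.946 against 1.42) were not tested.

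**Figure D2:**
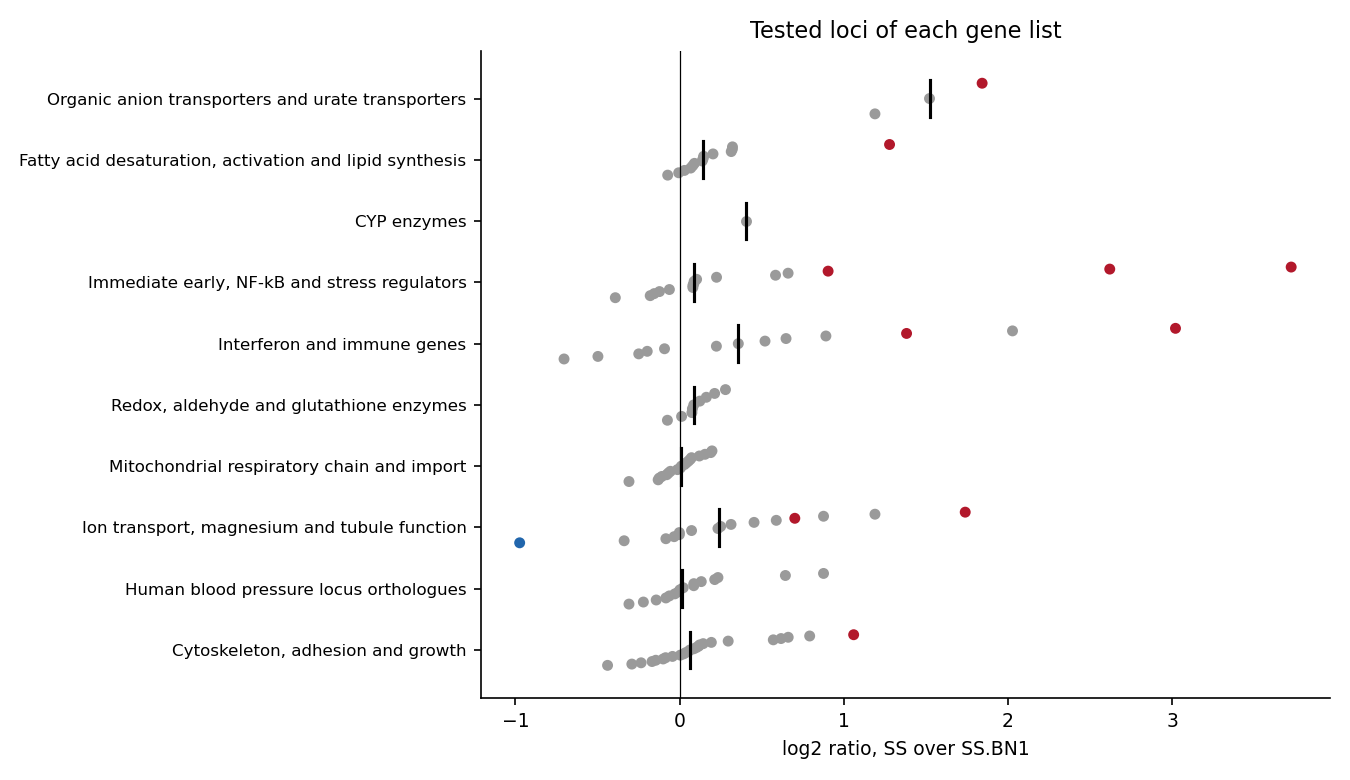
Each point is a tested locus of a gene list, placed by its log2 ratio of SS over SS.BN1, and black bars are list medians. Red points were called higher in SS and the blue point, Gucy2g, was called higher in SS.BN1. Redox and mitochondrial loci sit near 0, and the 3 organic anion carriers, of which 2 passed the level of 1 only through SS, lie between 1.19 and 1.84.

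Along the chromosome, in windows of 10 Mb with at least 20 loci, median log2 ratios ran from -0.02, at 200 to 210 Mb, to 0.14, at 250 to 260 Mb. The calls were unevenly spread: the 20 Mb from 230 to 250 Mb held 9 calls among 52 tested loci (17.3%), and all other positions held 11 among 419 (2.63%). That stretch was noticed in these data, and its share was not tested. Its called loci included Ostf1, Anxa1, Zfand5, Cemip2, Fam189a2, Tmem252, Cd274 and Il33. The median log2 ratio there was 0.06, and the median level was 12.4 FPKM against 15.1 elsewhere. The window of 230 to 240 Mb, with 4 calls among 17 tested loci, holds only 19 loci and is thin. There 41.2% of the tested loci were at least 1.5-fold apart, and from 235 to 240 Mb the median log2 ratio was 0.60, with 7 of 9 tested loci higher in SS. The window of 240 to 250 Mb alone held 5 calls among 35 (14.3%).

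The gene-dense stretch from 210 to 230 Mb held 235 tested loci but 4 calls (1.70%), which were Dusp8, Chka, Fosl1 and Slc22a12. The windows at 200 to 210 Mb (31 tested) and 280 to 290 Mb (13 tested) held none. Between 250 and 255 Mb, 14 of 15 tested loci were higher in SS, with a median log2 ratio of 0.32, yet none was called. That stretch runs from the sphingomyelin synthase Sgms1 (32.6 against 26.0 FPKM) and includes Ankrd22, the deubiquitinase Stambpl1 (11.4 against 6.50), Acta2, Ch25h, Ifit2 and Ifit3. It holds 18 loci, was noticed in the data and was not tested.

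**Figure D3:**
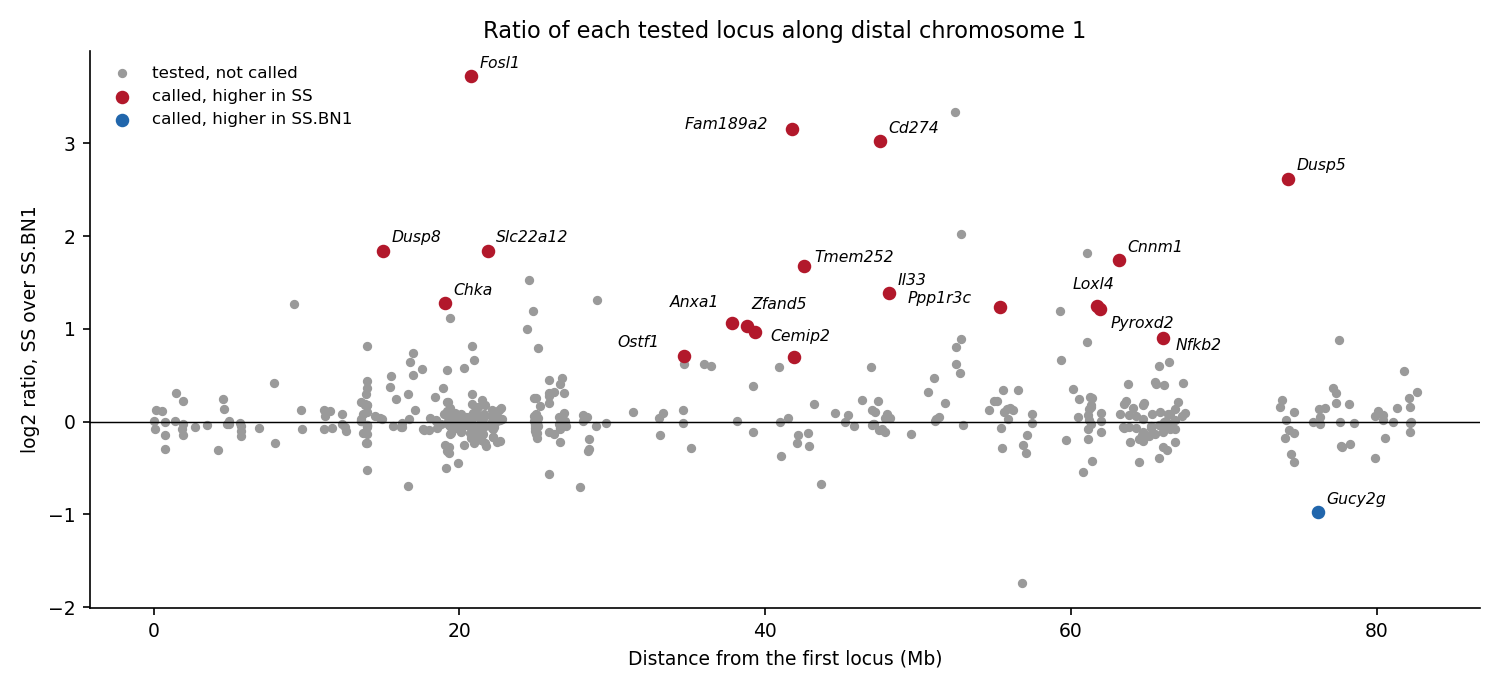
Log2 ratio of SS over SS.BN1 for the 471 tested loci, by distance from the first locus in Mb. Grey points were not called, red points were called higher in SS and the blue point was called higher in SS.BN1. Of all these loci, 89.0% lie within 1.5-fold.

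**Figure D4:**
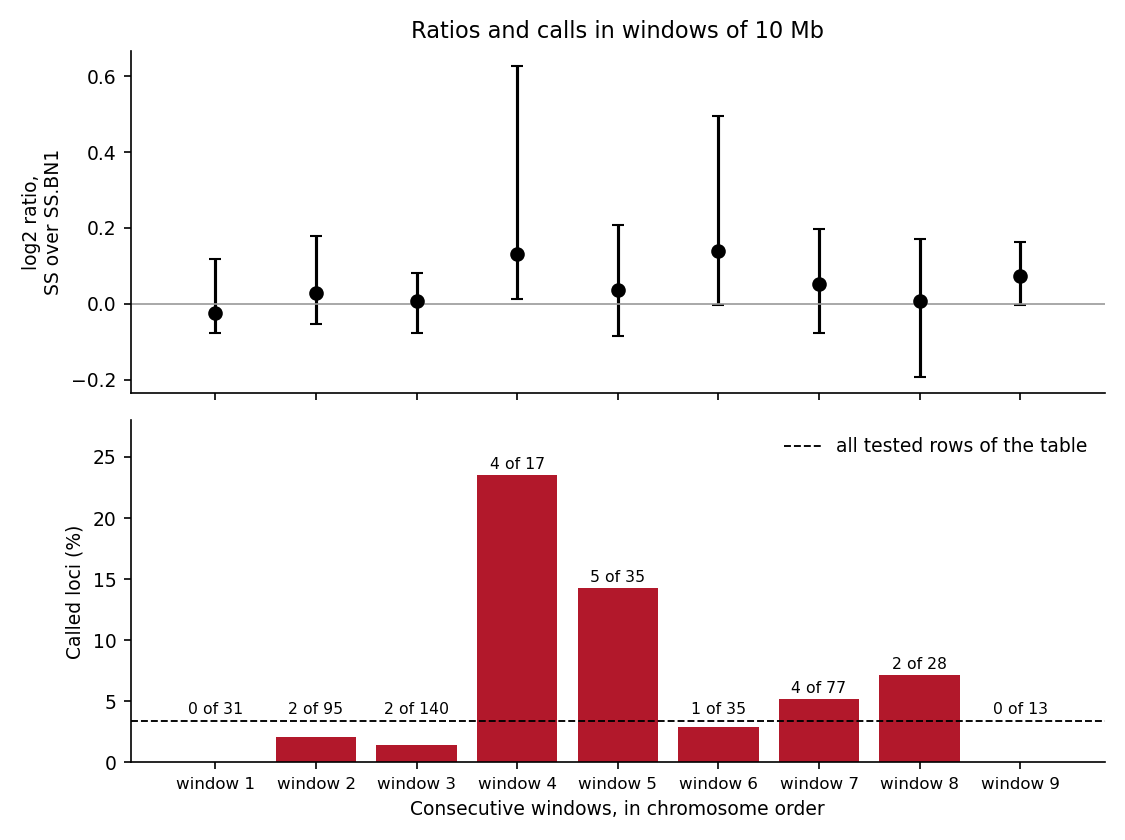
Upper panel, median log2 ratio and quartiles (bars) of the tested loci in 9 consecutive windows of 10 Mb. Lower panel, percent of tested loci called, with counts above the bars and the 3.42% of all tested rows as a dashed line. The window holding 230 to 240 Mb (window 4) has 4 calls among 17 loci.

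Next to a called locus on either side lay 39 different tested loci. Of these, 33 (84.6%) were within 1.5-fold, beside 89.0% of all tested loci, and 4 (10.3%) were themselves called, beside 4.25%. These differences were not tested. Cd274 lies 5.40 kb from the plasminogen receptor gene Plgrkt, which had 8.62 FPKM in SS beside 9.16 in SS.BN1. Nfkb2 lies between Gbf1 (20.7 against 21.3 FPKM) and Fbxl15 (5.31 against 6.43). Dusp5 has Smndc1 (44.8 against 44.1 FPKM) and the cohesin subunit Smc3 (24.8 against 26.3) on its sides. Neighbours that were both called included Loxl4 and Pyroxd2, 108 kb apart. Over 470 pairs of neighbouring loci, which share libraries, the log2 ratios had a Pearson r of 0.08 and a Spearman rho of 0.09.

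Isoform values placed the difference on annotated transcripts for some loci and on transcripts assembled by the authors for others. The 495 loci had 1613 isoforms, of which 978 were tested and 12 called (1.23%, beside 1.05% of all 23688 tested isoforms), all 12 higher in SS. The called isoforms belonged to 11 loci, of which 10 were called as genes and the other was Frat2. Gene values are the sums of isoform values, so this is no separate evidence. The annotated Dusp5 transcript had 30.3 FPKM in SS beside 4.43 in SS.BN1, and the authors' deposited table gave q = 0.00718. An assembled Cd274 transcript had 14.8 against 1.94 FPKM, and the authors' deposited table gave q = 0.00718, and the annotated one held 21.2% of the Cd274 level in SS.

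Fewer than 50% of the FPKM in SS lay on annotated transcripts at 6 of the 20 called loci and at 139 of all 495 (28.1%). The 6 included Gucy2g, Chka (10.2%), Cd274, Loxl4 (24.8%) and Cemip2 (35.3%). Fosl1 differed in this share between strains: its annotated transcript held 88.3% of the level in SS (25.2 FPKM) and 38.4% in SS.BN1. Yet the authors' deposited table called none of its 2 tested isoforms, and the annotated one had q = 0.999. The annotated share of Frat2 went the other way from that of Fosl1. An assembled Frat2 transcript had 6.93 FPKM in SS beside 0.845 in SS.BN1 (q = 0.00718 by the authors' deposited table), while its annotated transcript had 0.960 against 1.39. The sources used here do not say how an assembled transcript was joined to its gene.

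**Figure D5:**
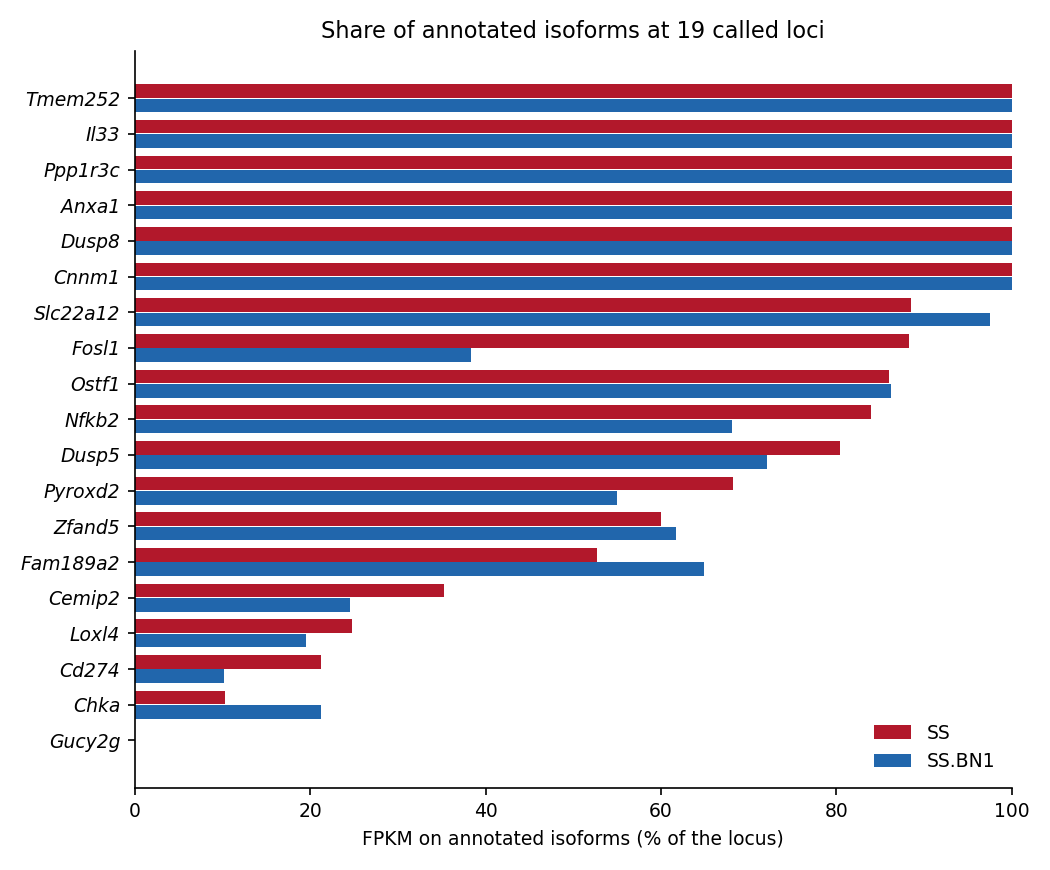
Percent of FPKM that lies on annotated isoforms at 19 of the 20 called loci, in SS (red) and SS.BN1 (blue), with 1 value per strain. At 6 loci, among them Anxa1 and Dusp8, all of it does, and at Gucy2g none.

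Of 78 tested loci with a mean of 1 to 5 FPKM, 26.9% were at least 1.5-fold apart, beside 19.3% of all tested rows of that level. The share was 9.13% of 208 loci from 5 to 20 FPKM (6.85% of all rows), 6.45% of 155 from 20 to 100 (5.69%), and 6.67% of 30 loci of 100 or more (8.90%). A locus could enter through 1 strain alone: 11 loci were under 1 FPKM in SS.BN1 and 5 in SS, and the called loci among them were Fam189a2 and Cnnm1. Just above the level of 1 stood Prune2 (mean 1.03 FPKM), Cep55, AC080157.1, Cd151 and Ptprcap (1.11), none of them tested. Just below it stood Slc29a2 (0.992), Pdzd7, Ccdc88b, Cyp2c11 and Ms4a7 (0.865), also untested.

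The rest of chromosome 1 and the other chromosomes gave values on both sides. Named loci chosen by the same level had 24 calls among 411 tested (5.84%) from 0 to 100 Mb and 12 among 421 (2.85%) from 100 to 200 Mb. Named loci of the other chromosomes, which both strains share, had 342 calls among 8873 (3.85%). The median log2 ratios of these sets were 0.01, -0.01 and 0.01. The share of loci with the higher value in SS was 51.8%, 47.7% and 51.6% in them, all under the 56.1% of the distal loci. An unadjusted p under 0.05 was reached by 9.25%, 7.84% and 8.05%, again under the 11.0% of the distal loci. Loci at least 1.5-fold higher in SS numbered 37 of 411, 29 of 421 and 665 of 8873, beside 47 of 471 (9.98%). Those at least 1.5-fold higher in SS.BN1 made up 1.46%, 3.33% and 1.04% of these sets, beside 1.06% of the distal loci. No difference between these sets was tested.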

How the data were processed

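Per the labels' protocols, stranded total-RNA libraries of single animals were sequenced in pairs. Per the submitters' processing notes, the tools were Cufflinks 2.2.1, StringTie, TopHat2 2.1.1, FastQC and cutadapt, and the build rn5, with no roles. The authors deposited FPKM, p-values and q-values, 1 per strain or comparison; the sources used here do not give the way in which 6 libraries became 1 value. A deposited table gives counts of reads and the percent mapped per library. Its column headed as bases equals the sum of both mates' reads. The coordinates' build is not settled, since 6832 rows carry contig names (AABR07) of a later assembly than rn5; coordinates are as deposited, with 1 added to starts.

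Log2 ratios of SS over SS.BN1 were computed from FPKM with no pseudocount, and loci were called by the authors' q under 0.05. No model could be fitted, and p-values of the authors may not rest on variation between animals. Reads and mapping of the libraries were compared between strains with exact permutation tests. Of the 495 names, 473 matched RefSeq genes of GRCr8, used for names only, 472 of them on chromosome 1. The loci and gene lists were chosen with earlier results of these data known. Named loci were all called ones, the 10 of highest level, the 8 largest uncalled ratios per direction, up to 4 further loci per list by level, and 5 on each side of the level threshold; other loci (Rela, Chuk, Ifit2, Unc93b1, Ms4a6a, Cnnm2, Borcs7, Adrb1, Ahnak, Acta2, neighbours and those of the closing section) were named after their values were seen. Some loci that count in the totals are not reported here by name. Scripts were tested on simulated ratios and p-values. Alternatives were other level filters, pseudocounts, centring, quantile normalization, summed isoforms, q under 0.01 and other windows. Scripts used matplotlib 3.10.9, SciPy 1.17.1, pandas 2.3.3 and NumPy 2.4.6 under Python 3.11.15.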

Additional observations from a re-analysis of the deposited data

Results flagged for a closer look

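The results below lie in the same region but outside the 495 loci or the authors' tests, and no explanation was weighed. A row that carries only names of small RNAs (224921135 to 224924588) begins 42 bases beyond the amino acid exchanger gene Slc3a2. It had 55.8 FPKM in SS beside 1565 in SS.BN1, and the authors' deposited table gave q = 0.00266. Its interval is longer than a small RNA, so which transcript was measured is not settled. FPKM of small RNAs is also uncertain, and Slc3a2 itself was within 1.5-fold. An unnamed row (275976574 to 275981562) had 18.8 FPKM in SS beside 37.8 in SS.BN1, and the authors' deposited table gave q = 0.00266. It lies 205 kb before Gucy2g with no chosen locus between, and had the direction of Gucy2g. The chosen locus nearest to it, Gpam, lies 69.9 kb away on the other side. Gpam had 13.4 FPKM in each strain and was not called. An unnamed row that begins 11 bases beyond Ostf1 (234798674 to 234803059) had 2.50 against 1.11 FPKM, and the authors' deposited table gave q = 0.0467, the direction of Ostf1. Another unnamed row (223499147 to 223522978) had 5.87 against 1.68 FPKM, and the authors' deposited table gave q = 0.0318. AC111315.1 (265285778 to 265285837) was listed at 0 in SS and at 50.7 FPKM in SS.BN1 and was not tested by the authors. FPKM over an interval this short is uncertain, so the 0 may not mean absence.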

How the results depend on the processing

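The count of 20 called loci was 14 at a mean of at least 5 FPKM and 13 at q under 0.01. It was 20 with no level filter, with a fold of at least 1.5 or with 1 row per name, but these settings could not change it. No named row under the level was tested, the smallest called fold was 1.63, and the 495 loci have 495 names. The 2 alternatives chosen after seeing the data gave 19 calls without rows that share an interval and 18 with at least 1 FPKM in both strains. Loci at least 1.5-fold higher in SS numbered 47, and 28 at a mean of at least 5 FPKM. Their count was 39 with a pseudocount of 1, 38 after quantile normalization and 41 with at least 1 FPKM in both strains. Those higher in SS.BN1 numbered 5, and 3 at a mean of at least 5 FPKM. Their count was 3 with a pseudocount of 1, 9 after quantile normalization and 4 with at least 1 FPKM in both strains. Quantile normalization shifted the median of all tested rows to -0.07. The cause was not tested. The median log2 ratio of the loci ran from -0.06, after quantile normalization, to 0.03 over the alternatives, and the highest median of a window with at least 20 loci from 0.08 to 0.14. No called locus changed sign under quantile normalization. The other settings could not have changed the sign of a called locus. A pseudocount keeps the sign, centring shifted the ratios by 0.001, and isoform values sum to the gene values. Of 345 values for 69 named loci, 64 moved by over 0.1 on the log2 scale. No paired analysis was possible because the tables hold 1 value per strain, and no library could be left out for the same reason. The smallest called fold was 1.63, so smaller differences may be below what the authors' test could call. Depth per gene is unknown, since FPKM give no counts.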

Other observations

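Below the threshold for calls, 32 further loci had an unadjusted p under 0.05 in the authors' deposited table, 29 with the higher value in SS and 3 in SS.BN1. Besides those described above they include several enzymes: riboflavin kinase Rfk (132 FPKM in SS beside 87.5 in SS.BN1), the inositol polyphosphate phosphatase Minpp1 (55.3 against 40.0), the aminoacylase Acy3 (35.0 against 23.8), the O-GlcNAc hydrolase Oga (38.3 against 28.4) and the last enzyme of cholesterol synthesis, Dhcr7 (6.30 against 3.78). The axon guidance ligand Slit1 was one of the 3 loci toward SS.BN1, with 28.6 against 41.6 FPKM and q = 0.327 in the authors' deposited table. The kidney developmental factor Pax2 had 37.8 FPKM in SS beside 51.2 in SS.BN1, with an unadjusted p = 0.0658 and q = 0.784 in the authors' deposited table.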
